A study of Saccharomyces cerevisiae with 3 samples.

Results

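The hexose transporters Hxt1 to Hxt10 are plasma membrane carriers through which budding yeast (Saccharomyces cerevisiae) takes up glucose and related sugars. They were chosen by name: HXT1 to HXT10, 10 of the 6256 genes on the array. The study asked how loss of HHO1, the gene of linker histone H1 in yeast, alters gene expression in unstressed cells and after heat shock. Total RNA was measured on 3 Agilent 2-colour arrays, 1 for each tested group, and every array carried wild-type RNA from 25 °C in its other channel. The groups were HHO1 deletion cells heated to 37 °C (Cy3), wild-type cells heated to 37 °C (Cy5), HHO1 deletion cells kept at 25 °C (Cy3) and wild-type cells kept at 25 °C, which were measured in 3 channels, 2 in Cy5 and 1 in Cy3. All cultures were grown in YPAD, a rich medium with glucose, to an OD600 of 0.5, and the heat treatment lasted 15 min. The growth field of the labels gives 37 °C as the growth temperature of the heated cultures, whereas the treatment field and the design describe a shift to 37 °C. The strain background, and whether the 3 wild-type channels at 25 °C came from separate cultures, are not stated in the labels.

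Hxt proteins carry glucose down its gradient, and yeast swaps carriers of different affinity as the supply of sugar changes. Hxt1 and Hxt3 have low affinity and serve cells in plentiful glucose, Hxt2, Hxt4, Hxt6 and Hxt7 have high affinity and serve cells short of it, and Hxt5 has moderate affinity and is known from slowly growing, starved or stressed cells. High glucose represses the genes of the high-affinity carriers through the repressor Mig1, and in the absence of glucose the repressor Rgt1 holds most HXT genes down until the sensors Snf3 and Rgt2 signal.

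With 1 array per group no test was possible, and a gene was said to have risen or fallen when its mean log2 ratio was 1 or more in size and none of its spots was below 0.58 in that direction. The SD given for a ratio is that between repeat spots of the probe on the array or arrays compared, and it holds no variation between cultures. Of the 10 transporters, 7 had 2 spots and HXT1, HXT2 and HXT7 had 1 spot. None of their 17 spots was saturated or carried an outlier flag. The ratio of HHO1 itself, deletion over wild type, was -3.91 ± 0.01 at 37 °C and -4.34 ± 0.16 at 25 °C (log2, SD of 2 spots). Of the 2 HHO1 spots, 1 exceeded background clearly in the deletion RNA on each array. Of 16 heat shock chaperone genes, 15 had a value in each heat response and all 15 rose, with a median of 4.76 in deletion cells and 5.34 in wild-type cells (log2). The slide identifiers in the file headers put both deletion arrays on a slide of their own, apart from the array with heated wild-type cells. Strain, slide and dye therefore cannot be told apart at 37 °C.

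Within 15 min of heat the transcripts of the low-affinity and of several higher-affinity carriers moved in opposite directions. In deletion cells HXT5, HXT6 and HXT7 rose and HXT1 and HXT3 fell. In wild-type cells the same 3 genes rose, and HXT1, HXT3 and HXT4 fell. On the wild-type array the heated RNA was in Cy5 and the unheated RNA in Cy3, with no dye swap. Temperature and dye therefore cannot be told apart in the wild-type response. With channels of the same dye, taken across slides, the wild-type ratios were -3.52 for HXT1 and -2.65 for HXT3. HXT6 then had 4.29, HXT7 4.39 and HXT5 6.12, while HXT4 had -0.42 and HXT2 turned to 0.39. Across all genes the rule called 11.5% risen and 15.8% fallen of 5918 genes in deletion cells, and 11.6% risen and 16.4% fallen of 5974 in wild-type cells. A count of 2 or 3 fallen of 10 is near these shares, and HXT4 was only just past the threshold in wild-type cells. A count of 3 risen lies above them by few genes, and HXT6 and HXT7 among the 3 may share signal. The sizes stand further out: the members ranged from -3.42 to 5.74 in deletion cells and from -3.75 to 5.33 in wild-type cells, while the central 95% of all genes ran from -2.996 to 2.38 in deletion cells and from -3.24 to 2.42 in wild-type cells. Outside that central range lay 5 members in deletion cells and 4 in wild-type cells. A ratio from a whole culture cannot tell apart a change in every cell and a change in the share of cells that hold the transcript.

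**Figure D1:**
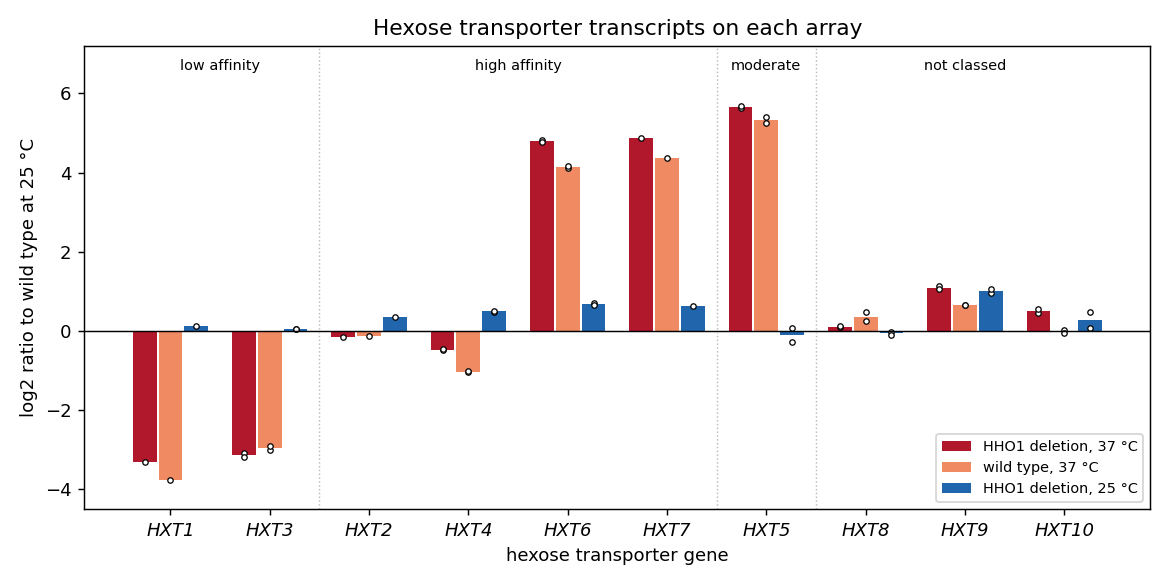
The vertical axis gives the log2 ratio of each array's own sample to wild type at 25 °C, the horizontal axis the 10 transporter genes by affinity class; bars are means over spots and circles are the spots. The heated samples of both strains run from strongly negative bars for HXT1 and HXT3 to bars between 4.14 and 5.65 for HXT6, HXT7 and HXT5, and the means of the unheated deletion sample stay within -0.090 to 1.01.

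HXT1 (YHR094C) encodes the main low-affinity carrier of cells in high glucose. Its normalised intensity, the single-channel signal after normalisation within and between arrays, was 730.5 in heated deletion cells, 625 in heated wild-type cells, 7785 in unheated deletion cells, and 7174, 7211 and 8426 in the 3 unheated wild-type channels. Both heated values lay far below all 4 unheated values, and the unheated deletion value lay inside the wild-type range at that temperature. The heat ratio was -3.42 in deletion cells, 10.7-fold lower than at 25 °C, and -3.75 in wild-type cells, 13.5-fold lower, each from 1 spot.

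HXT3 (YDR345C), the other low-affinity carrier, is the one found over a wide range of glucose supply. Its normalised intensity was 2519.9 in heated deletion cells, 2939.7 in heated wild-type cells, 16052 in unheated deletion cells, and 15543, 22001 and 22721 in unheated wild-type cells. The heated and unheated values were again separate in both strains. The heat ratio was -3.17 ± 0.06 in deletion cells (9.02-fold lower) and -2.95 ± 0.07 in wild-type cells (7.73-fold lower, log2 ± SD, 2 spots). The wild-type Cy5 channel of the array with heated deletion cells was 0.50 above that of the array with unheated deletion cells (log2), where the SD of that difference over 5918 genes was 0.22.

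HXT6 (YDR343C) and HXT7 (YDR342C) encode nearly identical high-affinity carriers, and a probe of either may bind RNA of both, so that their values are not independent. The normalised intensity of HXT6 was 65942 in heated deletion cells, 50285 in heated wild-type cells, 4481 in unheated deletion cells, and 2784, 2369 and 2856 in unheated wild-type cells. That of HXT7 was 118318 in heated deletion cells, 92861 in heated wild-type cells, 7578 in unheated deletion cells, and 4882, 4029 and 4530.4 in unheated wild-type cells. For both genes the order was heated deletion, heated wild type, unheated deletion and unheated wild type, with no overlap between heated and unheated cells. The heat ratio of HXT6 was 4.11 ± 0.00073 in deletion cells (17.3-fold) and 4.14 ± 0.02 in wild-type cells (17.6-fold, SD of 2 spots). HXT7 rose by 4.24 in deletion cells (18.9-fold) and by 4.36 in wild-type cells (20.5-fold), each from 1 spot. Ranked from the highest ratio, these genes held places 44 and 43 of 5918 in deletion cells and 50 and 40 of 5974 in wild-type cells.

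The other high-affinity carriers did not share this rise. HXT2 (YMR011W), which is known to be strongest at intermediate, low glucose, had a normalised intensity of 12622 in heated deletion cells, 17778.5 in heated wild-type cells, 16860 in unheated deletion cells, and 13207, 13933 and 19417 in unheated wild-type cells. Heated wild-type and unheated deletion cells lay inside the range of the unheated wild-type channels, and heated deletion cells lay just below it. Its heat ratio was -0.49 in deletion cells and -0.13 in wild-type cells, neither past the rule. HXT4 (YHR092C) had 499.5 in heated deletion cells, 492 in heated wild-type cells, 889 in unheated deletion cells, and 629, 690.1 and 998 in unheated wild-type cells. Both heated values were below all unheated ones. Its heat ratio was -0.97 ± 0.01 in deletion cells, just inside the threshold, and -1.02 ± 0.03 in wild-type cells, just past it. The wild-type call was lost without background correction (-0.90), with median centring (-0.75) and with channels of the same dye (-0.42).

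The low-affinity carriers were lower than both pairs of high-affinity carriers, by different amounts. The median of HXT1 and HXT3 minus that of HXT2, HXT4, HXT6 and HXT7 was -5.11 in deletion cells and -5.36 in wild-type cells (log2 units of heat ratio). The high-affinity class was split: the mean of HXT6 and HXT7 was 4.18 in deletion cells and 4.25 in wild-type cells, and the mean of HXT2 and HXT4 was -0.73 in deletion cells and -0.57 in wild-type cells. Against HXT2 and HXT4 alone, the low-affinity pair was lower by a difference of -2.57 in deletion cells and -2.78 in wild-type cells. Against HXT6 and HXT7 the difference was -7.47 in deletion cells and -7.60 in wild-type cells. These class values describe genes on the same arrays and carry no error of their own.

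HXT5 (YHR096C), the carrier of moderate affinity, had the largest heat ratio of the 10 genes. Its normalised intensity was 8102 in heated deletion cells, 9232 in heated wild-type cells, 102 in unheated deletion cells, and 109, 161 and 229 in unheated wild-type cells. The heated values stood far above every unheated one. The heat ratio was 5.74 ± 0.20 in deletion cells (53.6-fold, place 10 of 5918) and 5.33 ± 0.11 in wild-type cells (40.2-fold, place 17 of 5974). At 25 °C its spots were dim. Their mean brightness in Cy3 was 1.08 times the median of the 89 negative-control spots in deletion cells, where 1 of 2 spots was well above background, and 1.28 times that median in wild-type cells. The size of this rise moved with the processing. Between no background correction and the scanner's processed signals it was 5.37 and 6.53 in deletion cells, and 4.53 and 6.65 in wild-type cells, and with each array centred on its median it was 4.23 in deletion cells. The wild-type Cy5 channel was 0.57 higher on the array with heated deletion cells than on that with unheated ones (log2), and the 3 unheated wild-type channels spanned 1.08.

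**Figure D2:**
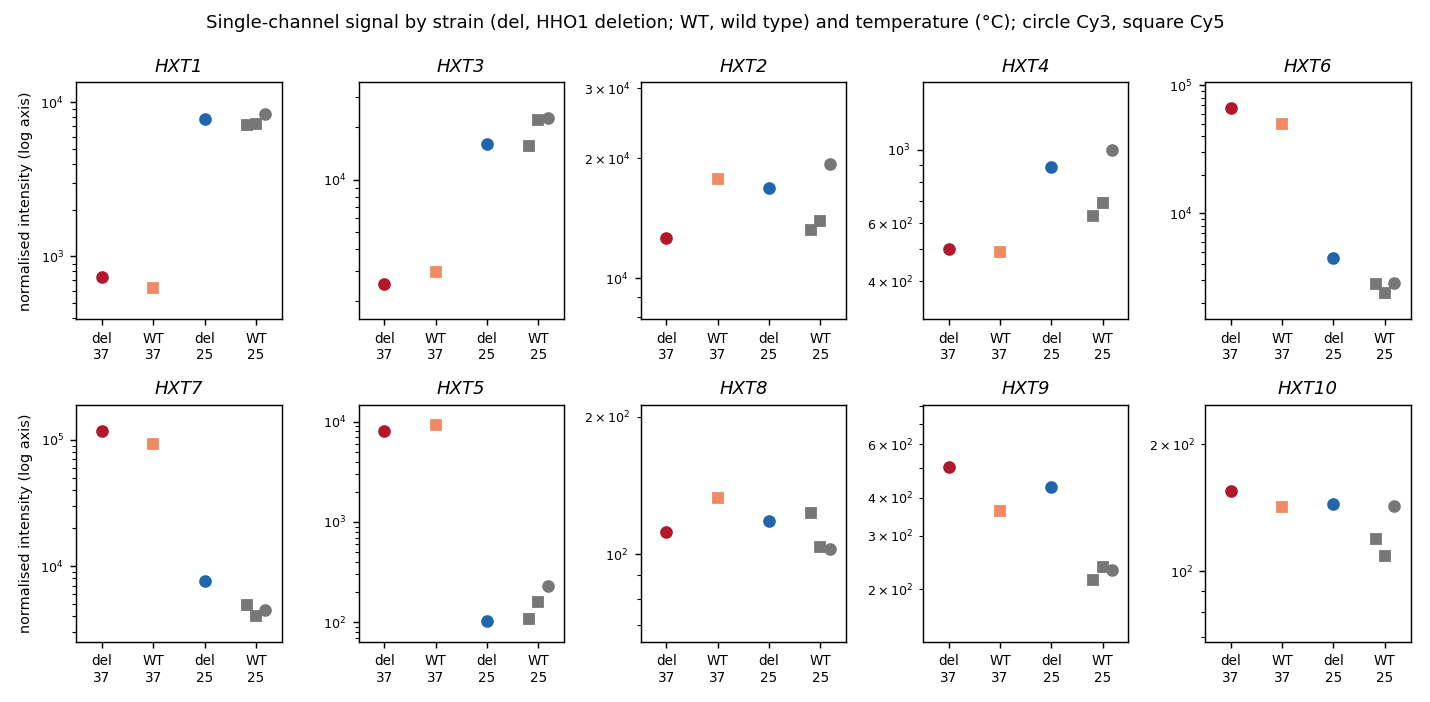
Each panel plots the normalised intensity of 1 transporter on a log axis of its own against the 4 groups, with circles for Cy3 and squares for Cy5 and 3 points for wild type at 25 °C. HXT1 and HXT3 are lower and HXT6, HXT7 and HXT5 higher in both heated groups than in every unheated channel. HXT6, HXT7 and HXT9 in unheated deletion cells lie above all 3 unheated wild-type channels. So does the dim HXT10, by little, at 145 beside a highest unheated wild-type value of 143.

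HXT8 (YJL214W), HXT9 (YJL219W) and HXT10 (YFL011W) contribute little to glucose uptake in standard laboratory strains. None of them passed the rule in either heat response. HXT8 had a normalised intensity of 112 in heated deletion cells, 133 in heated wild-type cells, 118 in unheated deletion cells, and 123, 104 and 103 in unheated wild-type cells. Its Cy3 brightness was between 1.08 and 1.13 times the negative-control median, and in the Cy3 channel of the wild-type array 0 of its 2 spots were well above background. HXT10 had 155 in heated deletion cells, 142 in heated wild-type cells, 145 in unheated deletion cells, and 119, 109 and 143 in unheated wild-type cells. The heat ratios were 0.16 ± 0.07 for HXT8 and 0.23 ± 0.20 for HXT10 in deletion cells, and 0.37 ± 0.18 for HXT8 and -0.0047 ± 0.06 for HXT10 in wild-type cells. These dim genes gave no change past the rule, and signals this close to background leave small changes undetectable.

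HXT9 is also known in this species for a part in drug resistance together with HXT11. At 25 °C its ratio of deletion over wild type was 1.01, only just past the threshold. Strain and dye cannot be told apart in that ratio. The call of HXT9 was lost without background correction (0.74) and with channels of the same dye (0.90). Its normalised intensity was 506 in heated deletion cells, 363 in heated wild-type cells, 433 in unheated deletion cells, and 215, 236 and 232 in unheated wild-type cells. The unheated deletion value lay above all 3 unheated wild-type channels and also above heated wild-type cells. HXT9 was dim at 25 °C too, although both of its spots were well above background. Its Cy3 brightness was 2.05 times the negative-control median in unheated deletion cells and 1.42 times in unheated wild-type cells. Its heat ratio was 0.087 ± 0.14 in deletion cells and 0.65 ± 0.0020 in wild-type cells. HXT9 and HXT11 are close copies, and the files do not tell whether the probe separates them.

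**Figure D3:**
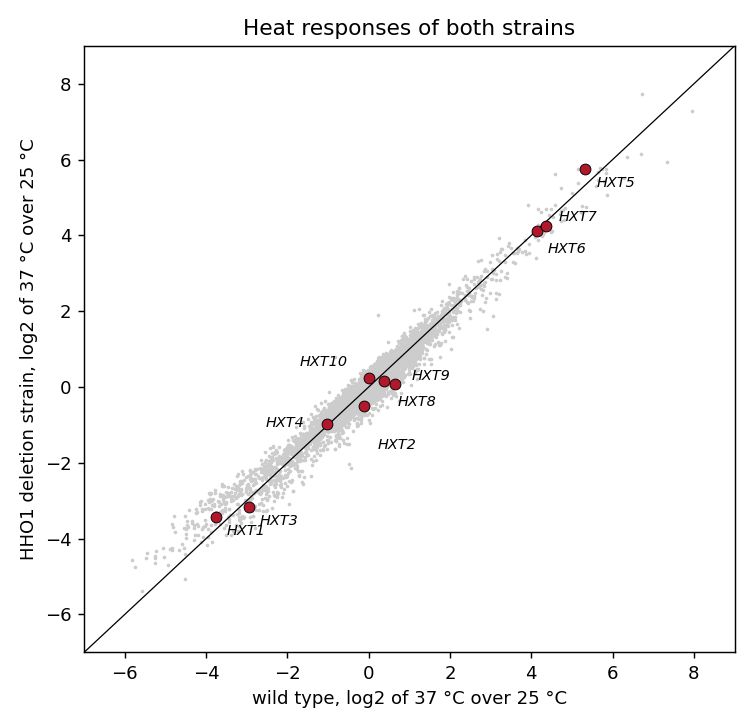
The horizontal axis is the log2 heat ratio (37 °C over 25 °C) in wild-type cells and the vertical axis that in the HHO1 deletion strain; grey points are all genes, red points the 10 transporters, and the line marks equal ratios. HXT5, HXT6 and HXT7 lie at the upper right and HXT1 and HXT3 at the lower left, each within 0.41 of the line on the vertical axis.

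At 25 °C, deletion over wild type, HXT9 rose by 1.01 ± 0.08 (2.01-fold) and the other 9 members did not pass the rule. Over all 5984 genes the rule called 0.0501% risen and 0.0167% fallen, that is 3 genes and 1 gene, and HXT9 held place 3 from the top. The 1 fallen gene was the deleted HHO1 itself, at -4.34. HXT6 at 0.69 ± 0.02 and HXT7 at 0.63 held places 11 and 18, and HXT4 at 0.50 ± 0.02 held place 42. These 4 members lay outside the central 95% of all genes, which ran from -0.38 to 0.39. HXT2 had 0.35, HXT10 0.28 ± 0.28, HXT1 0.12, HXT3 0.047 ± 0.0097, HXT8 -0.056 ± 0.06 and HXT5 -0.090 ± 0.25, all inside that range. The median of the 10 members was 0.32 and that of all genes -0.017, and 8 of 10 members were above 0.

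In that array the deletion RNA was in Cy3 and the wild-type RNA in Cy5 with no dye swap, so strain and dye cannot be told apart within it. A Cy3 channel of unheated wild-type RNA was available on the other slide. With the deletion strain's Cy3 channel set against that one, HXT6 had 0.65, HXT7 0.74 and HXT9 0.90, all positive as before. HXT1 had -0.11, HXT4 -0.17, HXT2 -0.20 and HXT3 -0.50 on the same footing, each with its sign turned. HXT8 turned to 0.20, HXT5 had -1.17 and HXT10 0.021. The median of the 10 members was then -0.047, beside -0.038 for all genes, and 5 of 10 members were above 0. Over all 11 settings HXT6 ran from 0.51 to 0.74 (the highest from the authors' deposited table), HXT7 from 0.44 to 0.74 and HXT9 from 0.74 to 1.43.

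At 37 °C, deletion over wild type, 0 of the 10 members passed the rule. Over all 5895 genes it called 0.187% risen and 0.407% fallen. The ratio was 0.66 ± 0.05 for HXT6, 0.56 ± 0.02 for HXT4, 0.52 for HXT7, 0.51 ± 0.14 for HXT10, 0.45 ± 0.06 for HXT9 and 0.45 for HXT1. HXT5 had 0.32 ± 0.06, HXT2 -0.015, HXT3 -0.18 ± 0.13 and HXT8 -0.26 ± 0.19. Of these, HXT6 alone lay outside the central 95% of all genes, from -0.63 to 0.63. The median of the members was 0.45, that of all genes 0.012, and 7 of 10 were above 0. With each array centred on its median in place of the loess curve, the median of all genes was -0.37 and the values were -0.24 for HXT6 and -0.46 for HXT7, that is 0.13 and -0.091 relative to that median. Under that centring 4 of 10 members were above 0. The heated strains had no dye in common, so the same-dye setting could not set them side by side at 37 °C. It took heated deletion over unheated wild-type cells in Cy3, minus heated over unheated wild-type cells in Cy5. On that footing 3 of 10 members were above 0, with a median of -0.16.

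**Figure D4:**
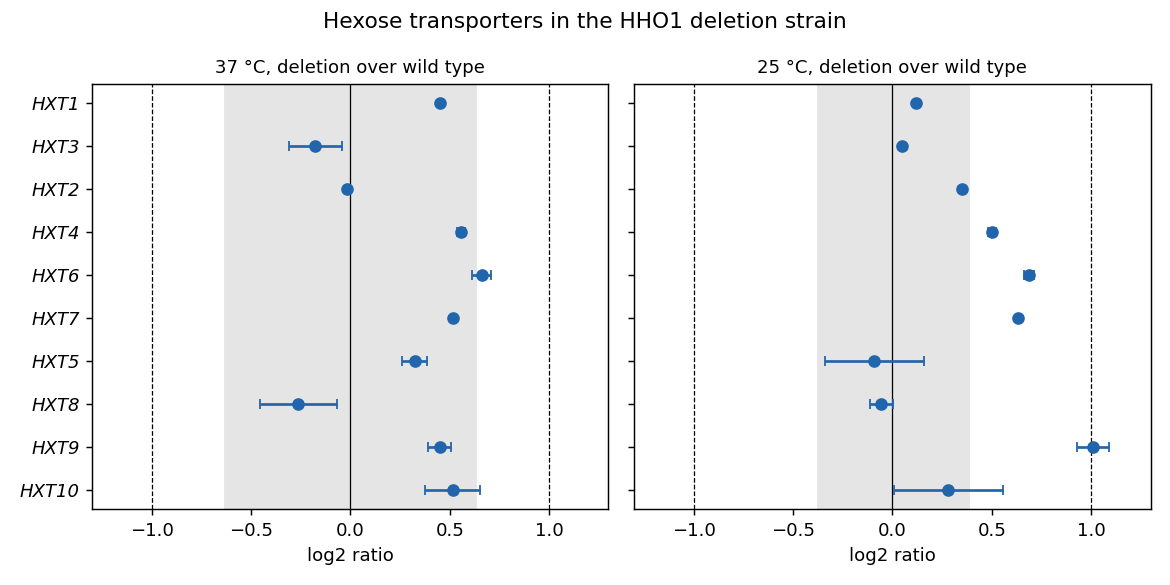
The horizontal axes give the log2 ratio of the HHO1 deletion strain over the wild type at 37 °C (left) and 25 °C (right), with bars for the SD between 2 spots, grey for the central 95% of all genes and dashed lines at the size rule. At 25 °C HXT9 reaches 1.01 and HXT6, HXT7 and HXT4 lie beyond the grey band, and at 37 °C HXT6 lies just beyond it.

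The heat responses of the 2 strains, deletion minus wild type, differed past the rule for 0 of the 10 members, with 0.375% of 5872 genes risen and 0.153% fallen. Heated and unheated RNA had the same dye in the deletion response and different dyes in the wild-type one. Strain and dye therefore cannot be told apart in this difference. HXT5 had the highest difference at 0.41 ± 0.31, followed by HXT1 at 0.33, HXT10 at 0.23 ± 0.14 and HXT4 at 0.055 ± 0.04. Over the 11 settings HXT5 ran from -1.54 to 0.84 and HXT1 from -0.20 to 0.49, so their signs depend on the processing. HXT9 stayed negative, from -0.93 to -0.38. HXT9 had the lowest at -0.56 ± 0.14, and HXT2 had -0.37, HXT3 -0.22 ± 0.12, HXT8 -0.21 ± 0.25, HXT7 -0.12 and HXT6 -0.026 ± 0.03. All 10 lay inside the central 95% of all genes, from -0.57 to 0.57. The 5 genes that rose or fell in both strains differed between them by 0.41 or less in size.

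**Figure D5:**
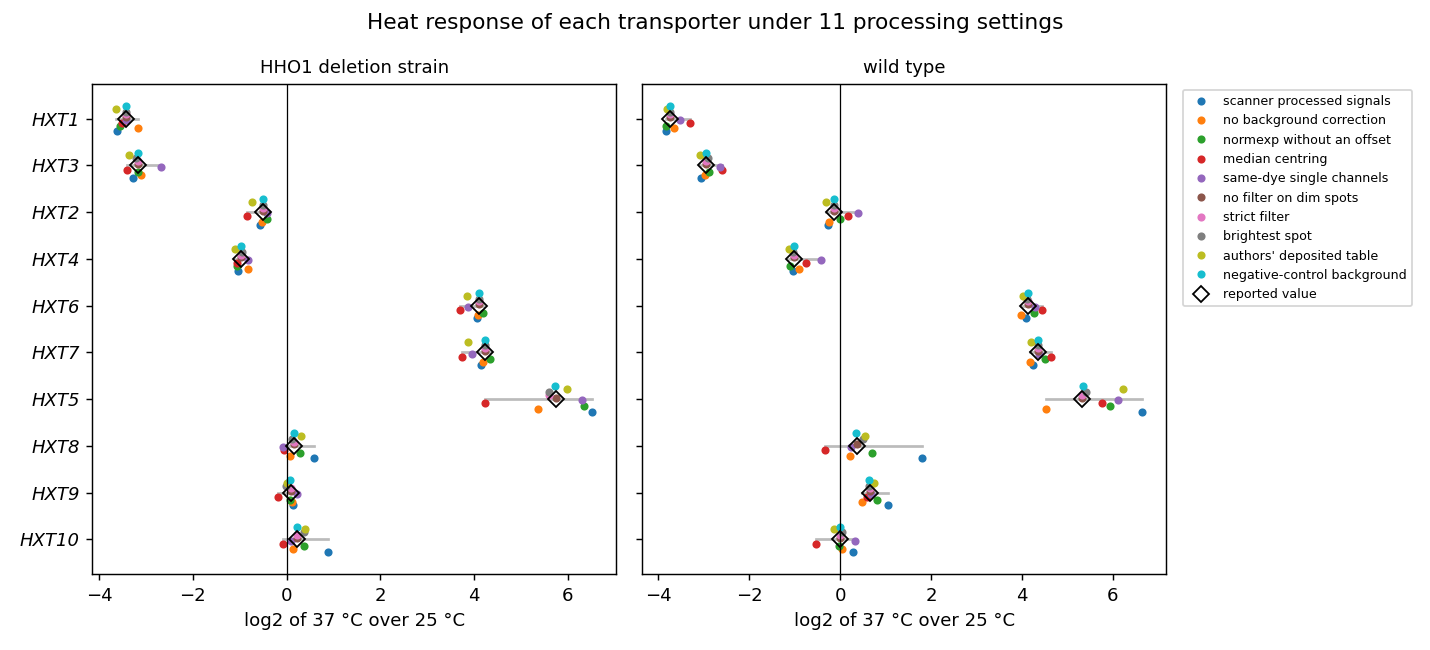
The horizontal axes give the log2 heat ratio under 11 processing settings (10 for HXT8 in wild-type cells) in deletion cells (left) and the wild type (right); coloured points are the alternatives, diamonds the reported values and grey lines the ranges. HXT1 and HXT3 stay below and HXT5, HXT6 and HXT7 above 0 under every setting, while HXT8 and HXT10 cross 0 in both strains.

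Several members are neighbours on their chromosomes, by gene order in the R64 assembly's table; the labels and file headers name no build, and no coordinates are reported. HXT7 and HXT6 are adjacent on chromosome IV, with 1 gene between HXT6 and HXT3, and all 3 lie on the C strand. HXT6 and HXT7 rose and HXT3 fell with heat in both strains. HXT4, HXT1 and HXT5 lie on the C strand of chromosome VIII, with 1 gene between HXT4 and HXT1 and none between HXT1 and HXT5. Of the adjacent genes HXT1 and HXT5, HXT1 fell and HXT5 rose in both strains. HXT9 and HXT8 lie on the W strand of chromosome X with 3 genes between them. The coding lengths of the 10 genes run from 1626 to 1779 bases.

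Likeness of pattern was measured as the Euclidean distance between the 3 log2 ratios to wild type at 25 °C, over 5872 genes with a value on all 3 arrays. HXT6 and HXT7 were each other's nearest gene, at 0.24, and the second for both was ARO10, a decarboxylase of amino acid breakdown, at 0.38 from HXT6 and 0.30 from HXT7. HXT1 lay nearest to URB1, a ribosome biogenesis factor, at 0.17 and to PPT1, a protein phosphatase, at 0.19. HXT3 lay nearest to the ribosomal protein genes RPS7A at 0.13 and RPL31B at 0.17. HXT5 lay nearest to EGO4 at 0.39 and RTC3 at 0.43. HXT9 lay nearest to DOT6, a repressor of ribosome biogenesis genes, at 0.49 and to STE3, a pheromone receptor, at 0.55. For HXT2 the nearest were LDB18 and HOB2, both at 0.07, and for HXT4 they were the thiamine transporter THI7 at 0.10 and ILM1 at 0.15. The dim genes HXT8 and HXT10 had the smallest distances to their nearest genes. These were YRF1-6 at 0.04 and YNL303W at 0.04 for HXT8, and YBR096W at 0.03 and RTS1, a phosphatase subunit, at 0.03 for HXT10.

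Among other genes of sugar uptake and glucose sensing, 3 of the genes that phosphorylate hexoses rose with heat. They were the 3 risen of 9 genes of hexose phosphorylation and upper glycolysis in both strains, of which none fell. Of all genes, 11.5% rose and 15.8% fell in deletion cells, and 11.6% rose and 16.4% fell in wild-type cells. This list and those below were chosen with earlier results of these data known, so their counts are a description only. HXK1, hexokinase 1, had 4.73 in deletion cells and 4.84 in wild-type cells, GLK1, glucokinase, had 3.77 in deletion cells and 3.95 in wild-type cells, and EMI2, a close relative of glucokinase, had 2.67 in deletion cells and 2.84 in wild-type cells. FBA1, aldolase, had 0.20 in deletion cells and 0.67 in wild-type cells. Hexokinase 2, HXK2, named here after its values were seen, had -0.10 in deletion cells and -0.095 in wild-type cells. The median of the list was 0.20 in deletion cells and 0.37 in wild-type cells, and over all genes -0.0045 in deletion cells and 0.00048 in wild-type cells.

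Of the 14 genes of the Snf1 and Mig1 branch of glucose repression 1 rose and 2 fell in both strains, counts no higher than the shares of all genes just given would yield. SIP2, a subunit of the Snf1 kinase, rose by 1.52 in deletion cells and 1.64 in wild-type cells. The repressors MIG2 and MIG3 had -1.71 and -1.06 in deletion cells, against -1.93 and -1.03 in wild-type cells. TOS3, a kinase that acts on Snf1, had 0.65 in deletion cells and 0.74 in wild-type cells. The list's median was 0.36 in deletion cells and 0.23 in wild-type cells.

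Of the 10 genes of the glucose sensors and the Rgt1 branch 0 passed the rule in either strain, with medians of 0.22 in deletion cells and 0.26 in wild-type cells. The shares of all genes were 11.5% risen and 15.8% fallen in deletion cells, and 11.6% risen and 16.4% fallen in wild-type cells. The sensor SNF3 had 0.82 in deletion cells and 0.88 in wild-type cells, RGT1 had 0.64 in deletion cells and 0.76 in wild-type cells, and MTH1, a co-repressor of Rgt1, had 0.95 in deletion cells and 0.72 in wild-type cells. STD1, its relative, had -0.38 in deletion cells and -0.55 in wild-type cells. Of 5 genes of disaccharide uptake and invertase 2 rose in both strains, where 11.5% of all genes rose in deletion cells and 11.6% in wild-type cells. MAL11, a maltose and trehalose carrier, rose by 1.40 in deletion cells and 1.65 in wild-type cells, and MAL31, a maltose carrier, by 1.08 in deletion cells and 1.05 in wild-type cells. MPH3, a carrier of the same kind, had 0.51 in deletion cells and 0.40 in wild-type cells, and MPH2 had 0.46 in deletion cells and 0.29 in wild-type cells. The median of the list was 0.51 in deletion cells and 0.40 in wild-type cells.

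Of the 7 further carriers of the family, HXT11, HXT13 to HXT17 and GAL2, the galactose carrier, 3 had a value in the deletion-strain heat response and 6 in the wild-type one, and 0 passed the rule in either. Of all genes, 11.5% rose and 15.8% fell in deletion cells, and 11.6% rose and 16.4% fell in wild-type cells. Beside these shares a count of 0 among so few genes says little. In wild-type cells HXT17 had 1.00, just under the threshold, GAL2 0.80, HXT16 0.40 and HXT15 0.30. HXT13, HXT15, HXT16 and HXT17 are close copies of one another and their probes may share signal. In the comparisons of strains 0 genes of these 5 lists passed the rule, at 37 °C or at 25 °C. The shares of all genes were 0.187% risen and 0.407% fallen at 37 °C, and 0.0501% risen and 0.0167% fallen at 25 °C. A count of 0 is near what such shares would yield. At 25 °C the disaccharide list had a median of 0.34 and the other 4 lists medians between -0.054 and 0.084.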

How the data were processed

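Members were the gene spots whose name in the scanner files is HXT1 to HXT10. The members, affinity classes and gene lists were chosen with earlier results of these data known. Per the file headers, the authors' deposited files came from Agilent Feature Extraction 9.1.1.1: they hold the mean intensity of each spot and the median local background, a processed intensity already background-subtracted and dye-normalised, a log10 ratio of Cy5 over Cy3 from the processed signals, and flags for dim, saturated and outlier spots. A value table that the authors deposited beside them holds log2 ratios. Its correlation with the ratios used here was 0.940 for the deletion at 25 °C, 0.984 for the deletion at 37 °C and 0.989 for heated wild-type cells, which sets its direction as sample over wild type at 25 °C. Its column medians were -0.013, -0.050 and -0.020 in that order of arrays, and the sources used here do not give its centring or steps, although the submitters' processing notes name limma.

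Spot intensities were corrected for background with normexp in limma 3.58.1 (R 4.3.3), with an offset of 50 that draws ratios of dim spots towards 0. Ratios were normalised with loess within each array, with weight 0 for control and outlier spots, and given the sign of sample over unheated wild type. Spots had to be well above background in 1 or both channels of every array in a comparison, and repeat spots were averaged per gene. Single-channel levels were taken after loess and Aquantile. They were compared within a probe only. Of 10263 gene spots, 90.0% to 95.1% per channel were well above background. The median of the 89 negative-control spots was 205 to 211 in Cy3 and 91.3 to 92.1 in Cy5. The number of arrays limits the precision. No test was run and no p-value is given, since each group had 1 array.

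There were 5 comparisons: heated minus unheated deletion cells (each over unheated wild type), heated over unheated wild-type cells, deletion over wild type at 37 °C and at 25 °C, and the difference between both heat responses. The 10 alternatives were the scanner's processed signals, no background correction, normexp without an offset, centring on the median, single channels of the same dye, no filter and a strict filter on dim spots, the brightest spot, the authors' deposited table, and a background from negative controls, the last chosen after seeing the data. Named genes were the 10 members, HHO1, the 2 genes nearest in pattern to each member and up to 4 genes per list with the largest wild-type heat ratio. Names came from the R64 gene table by systematic name, and 5756 of 6256 genes matched. The calculation was tested on simulated data. Probe, promoter and protein sequences were not used here.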

Additional observations from a re-analysis of the deposited data

Results flagged for a closer look

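4 transporters had log2 ratios of opposite sign in paired comparisons, which is why they are given here. None of these differences was tested, since each group had 1 array, and none of the values passed the size rule. HXT10 had a heat ratio of 0.23 in deletion cells and -0.0047 in wild-type cells. For the deletion over the wild type, HXT2 had -0.015 at 37 °C and 0.35 at 25 °C. HXT3 had -0.18 at 37 °C and 0.047 at 25 °C. HXT5 had 0.32 at 37 °C and -0.090 at 25 °C, where its spots were close to the negative controls. HXT10 was dim in every channel, and between its 2 spots the SD was 0.20 in deletion cells.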

How the results depend on the processing

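The directions and calls of HXT1, HXT3, HXT5, HXT6 and HXT7 in both heat responses were kept in 100 of 100 recomputed values. Of all 497 recomputed values of single transporters, 448 kept their sign. Some recomputed values could not differ from the main ones and add nothing to these tallies. Dropping the filter on dim spots left every member at its main value, and the brightest spot was the only spot of HXT1, HXT2 and HXT7. Among HXT1, HXT3, HXT5, HXT6 and HXT7 the strict filter changed the heat ratio of HXT5 in deletion cells only. With the scanner's processed signals 5 transporters rose in the wild-type heat response (main value 3), the added ones being HXT8 at 1.80 and HXT9 at 1.06. Transporters past the rule for the deletion at 25 °C numbered 0 without background correction and 4 with median centring (main value 1). With single channels of the same dye there was again 1, but it was HXT5 at -1.17, with HXT9 at 0.90. For the deletion at 37 °C they numbered 2 with scanner signals, 3 with median centring, 1 with channels of the same dye and 1 in the authors' deposited table (main value 0). For the difference of heat responses, transporters past the rule numbered 1 with scanner signals and 2 with median centring (main value 0). Of all genes, scanner signals called 0.375% risen and 4.38% fallen there, and median centring 0.851% risen and 4.60% fallen. HXT4 in deletion cells passed the rule under 4 alternatives, from -1.03 with scanner signals to -1.10 in the authors' deposited table. The low-minus-high affinity difference in deletion cells was -4.92 without background correction, -5.25 without the offset, -4.89 with median centring and -4.77 with channels of the same dye. In wild-type cells it was -5.19, -5.50 and -5.27 under the first 3 of these. Median centring moved the median of all genes to -0.19 in the deletion-strain heat response, -0.37 for the deletion at 37 °C and -0.34 in the difference, and scanner signals moved it to 0.12 in the wild-type heat response. Over all genes the share called for the deletion ran from 0.176% to 10.01% risen and 0.204% to 10.3% fallen at 37 °C, and from 0% to 9.34% risen and 0.0160% to 1.27% fallen at 25 °C. For the difference it ran from 0.102% (authors' deposited table) to 1.04% risen and from 0.102% to 4.60% fallen. In the wild-type heat response it ran from 8.87% without background correction to 20.3% with scanner signals for risen genes. The causes of these shifts were not tested. No paired analysis was possible because the groups hold a single array each, and no replicate could be left out for the same reason. HXT8, HXT10 and unheated HXT5 are limited by signals near background, and unheated HXT9 was dim as well.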
